A study of Mus musculus with 18 samples.

Results

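Promoters of the mouse cerebellum that had lost Chd4 were compared with the promoters of immature wild-type cerebellum. Conditional knockout mice of Chd4 (cKO) were at postnatal day 22 (P22) and wild-type (WT) mice at postnatal day 6 (P6). Chromatin immunoprecipitation sequencing of whole cerebellum had been done for trimethylated lysine 4 of histone H3 (H3K4me3) and for acetylated lysines 9 and 14 (H3K9/14ac), with 2 libraries in each of the 4 groups. The comparison covers the 23 of 24 promoters of the deposited table scored at the transcription start site (TSS) in all 8 libraries; Nt5dc2, listed without cKO scores, is left out. The groups differ in both age and genotype, which cannot be told apart in this comparison, so WT P22 libraries of the same marks are given beside it. The promoter or Cre line that drives the Chd4 deletion, the strain, the number of animals per library and the way the table's genes were chosen are not stated in the labels. A choice of genes made on these same libraries would leave their direction without independent support. The labels do not tie the 2 libraries of each group to different mice, and the p-values then cover only library-to-library spread, which may be technical. Of 39 marker genes listed for cerebellar cell types the table holds 2, Nhlh1 and Elavl2, both of early postmitotic granule neurons, and it does not hold Chd4, so neither the tissue nor the genotype labels could be checked. Changes within cells and changes in the proportions of cells cannot be told apart in whole cerebellum.

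Chd4 is the ATP-dependent remodelling subunit of the NuRD complex, which couples nucleosome remodelling to the removal of histone acetylation and is known for the repression of promoters. H3K4me3 and H3K9/14ac both mark the nucleosomes at the start of active genes. In the first postnatal weeks of the mouse cerebellum, granule neuron precursors stop dividing, migrate inward and form synapses, while genes of the immature state are switched off. A promoter that keeps its P6 marks in the cKO at P22, one that gains more than it had at P6 and one that has less are the cases set apart here.

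To show promoters near their P6 level and far from it, 3 sequences are given. The 250 bases upstream of the RefSeq start are printed for Nhlh1 (near P6 in H3K9/14ac), Cda (the largest difference from P6 on the log2(score + 2) scale in both marks) and Timp2 (near P6 in H3K9/14ac, with high scores in every group), from build GRCm38.p6, 5′ to 3′, with CpG dinucleotides in capitals.
Nhlh1 (chr1:172057597-172057846, minus strand): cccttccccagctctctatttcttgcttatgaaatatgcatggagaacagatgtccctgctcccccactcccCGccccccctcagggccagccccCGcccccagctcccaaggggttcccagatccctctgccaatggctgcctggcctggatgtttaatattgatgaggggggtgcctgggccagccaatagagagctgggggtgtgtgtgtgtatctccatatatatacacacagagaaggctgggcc
Cda (chr4:138367956-138368205, minus strand): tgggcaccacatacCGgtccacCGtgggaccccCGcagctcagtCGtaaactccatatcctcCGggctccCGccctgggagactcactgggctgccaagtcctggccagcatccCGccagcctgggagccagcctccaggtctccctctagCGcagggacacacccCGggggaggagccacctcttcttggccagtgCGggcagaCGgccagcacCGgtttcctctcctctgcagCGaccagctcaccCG
Timp2 (chr11:118355412-118355661, minus strand): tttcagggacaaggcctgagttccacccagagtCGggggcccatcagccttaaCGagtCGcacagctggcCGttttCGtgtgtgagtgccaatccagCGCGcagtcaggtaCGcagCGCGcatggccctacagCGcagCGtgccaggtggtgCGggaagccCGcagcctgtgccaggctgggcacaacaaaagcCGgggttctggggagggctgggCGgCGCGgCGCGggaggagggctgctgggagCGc
These windows hold 2 CpGs at Nhlh1, 14 at Cda and 21 at Timp2, against a median of 6 over the 32851 promoters of the RefSeq table. Nhlh1 has a GC content of 58.4%, and Cda and Timp2 each have 68%. The motif CANNTG, the E-box bound by basic helix-loop-helix factors and the same on both strands, occurs once in the Nhlh1 window, 2 times in the Timp2 window and not in the Cda window, while 66.2% of all promoters of that length hold it. Among the 10 described members with a single RefSeq start, CpG numbers ran from 1 at Mslnl to 22 at Hmcn2, both of which scored below 0 for H3K4me3 in every P6 and cKO library. The deposited strand matched RefSeq at 13 of 14 genes checked but not at Mslnl, so its window may not be the scored site. The table, for which the submitters' processing notes name mm9, puts the start sites at 173987694 on chromosome 1 for Nhlh1, 137923870 on chromosome 4 for Cda and 118216725 on chromosome 11 for Timp2.

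The level of the whole table was higher in the cKO than at P6. The mean H3K4me3 score over the 23 promoters was 6.85 and 9.90 in the P6 libraries and 11.0 and 20.5 in the cKO libraries. For H3K9/14ac it was 3.09 and 3.81 at P6 and 6.68 and 10.3 in the cKO. In both marks the lower cKO library lay above the higher P6 library, and an exact two-sided permutation test gave p = 0.333 for each, the smallest value that 2 libraries against 2 allow. WT P22 libraries stood at 5.16 and 7.96 for H3K4me3 and at 2.62 and 3.56 for H3K9/14ac, within the range of P6 or below it. The median log2(score + 2) of the tested promoters in a library was higher in the cKO than at P6 by 1.10 for H3K4me3 and 1.31 for H3K9/14ac. Whether this shift belongs to the promoters or to the scaling of the libraries was not tested, since the scaling is not stated. Each difference from P6 below is therefore given for the libraries as deposited and, where it changes, after subtraction of the library's median (centring). Centring gives the place of a promoter relative to the others. Differences that involve WT P22 are given for the deposited libraries only.

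**Figure D1:**
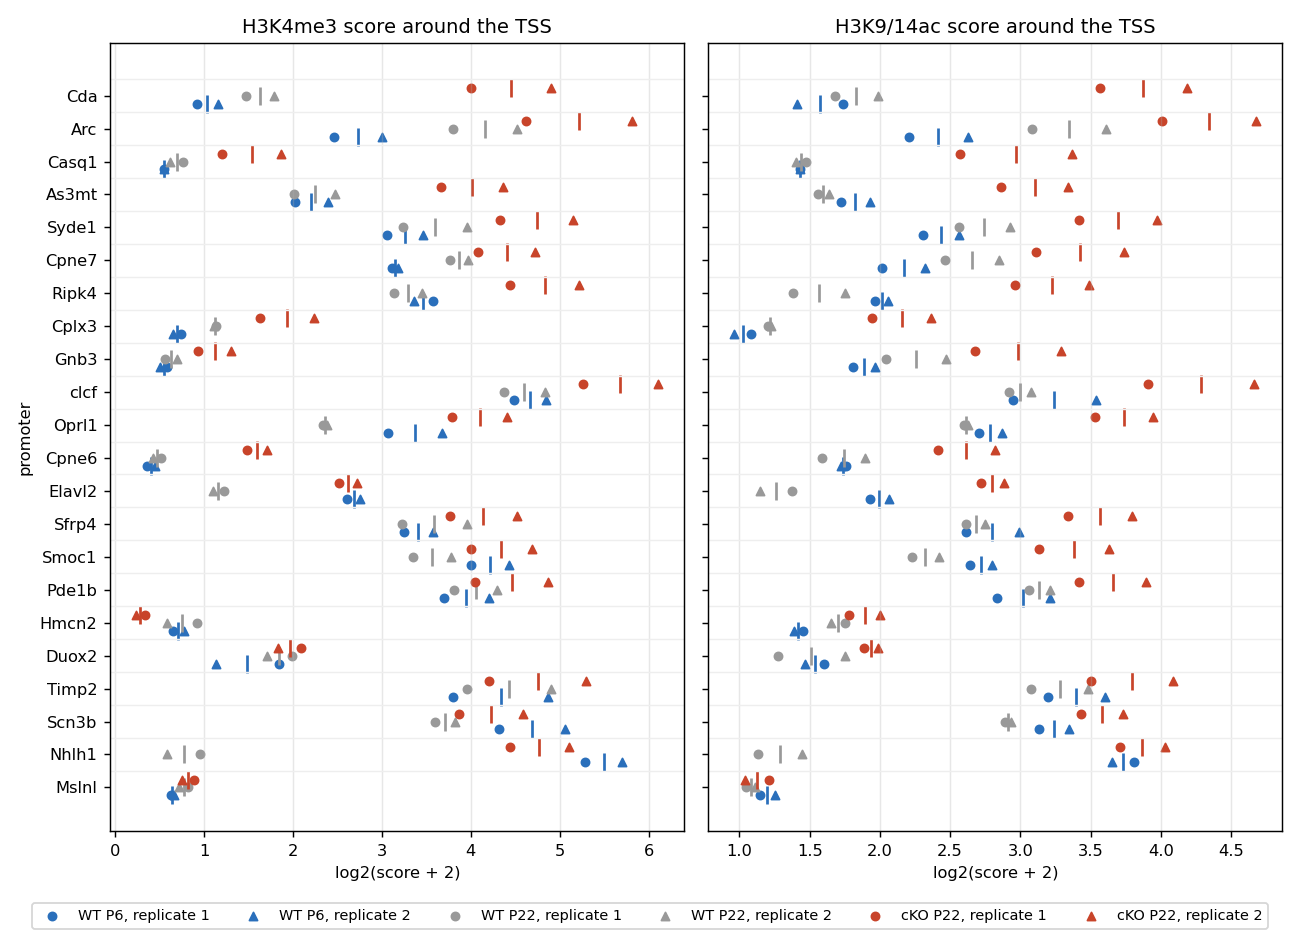
Scores on the log2(score + 2) scale (x axis) of 22 promoters (y axis) for H3K4me3 (left) and H3K9/14ac (right), with circles for replicate 1, triangles for replicate 2 and a vertical tick for the mean of the 2; blue is WT P6, grey WT P22 and red cKO P22. At Cda the red points stand apart from blue and grey, whereas at Nhlh1 red lies beside blue and far from grey in H3K9/14ac.

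H3K4me3 was higher in the cKO than at P6 at 9 of the 18 promoters tested (limma on log2(score + 2), Benjamini-Hochberg adjusted p under 0.05), which is 50% of them, and lower at 0, also with 0 lower at an unadjusted p under 0.05. H3K9/14ac was higher at 17 of 22 (77.3%) and lower at 0, again with 0 lower at an unadjusted p under 0.05. The median difference was 0.87 for H3K4me3 and 1.00 for H3K9/14ac on the log2 scale. Both cKO libraries lay above both P6 libraries in H3K4me3 at 15 of 23 promoters (65.2%), and in H3K9/14ac at 20 of 23 (87%). They lay below both at 2 (8.7%), Nhlh1 and Hmcn2, for H3K4me3 and at 0 for H3K9/14ac. With centred libraries H3K4me3 was higher at 4 promoters (22.2%) and lower at 5 (27.8%), and H3K9/14ac was higher at 2 (9.09%) and lower at 9 (40.9%). Cda and Cplx3 in H3K4me3, and Casq1 and Cplx3 in H3K9/14ac, passed the filter on low scores only through their cKO libraries, so they had to differ and their calls add no support to these counts. With each promoter's own spread in place of the pooled one limma called 0 promoters in H3K4me3 (7 higher at an unadjusted p under 0.05) and 11 in H3K9/14ac, and on scores without the log 0 (7 higher and 1 lower at an unadjusted p under 0.05) and 13. The test treats promoters as independent, although a shift of a whole library moves them together.

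A p above the threshold does not show that a promoter has returned to its P6 level, so likeness was read from the 95% interval of the difference. A promoter was placed within the margin where the whole interval lay between -1 and 1 on the log2(score + 2) scale. For low scores this allows more than a doubling of the score itself, and with a pseudocount of 1 the margin held 0 promoters for H3K4me3 and Nhlh1 alone for H3K9/14ac. This held at 2 of 18 promoters (11.1%) for H3K4me3, Elavl2 and Smoc1, and at 4 of 22 (18.2%) for H3K9/14ac, Nhlh1, Duox2, Scn3b and Timp2. For H3K4me3 7 promoters were neither called higher nor within the margin, and for H3K9/14ac 1, Hmcn2.

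**Figure D2:**
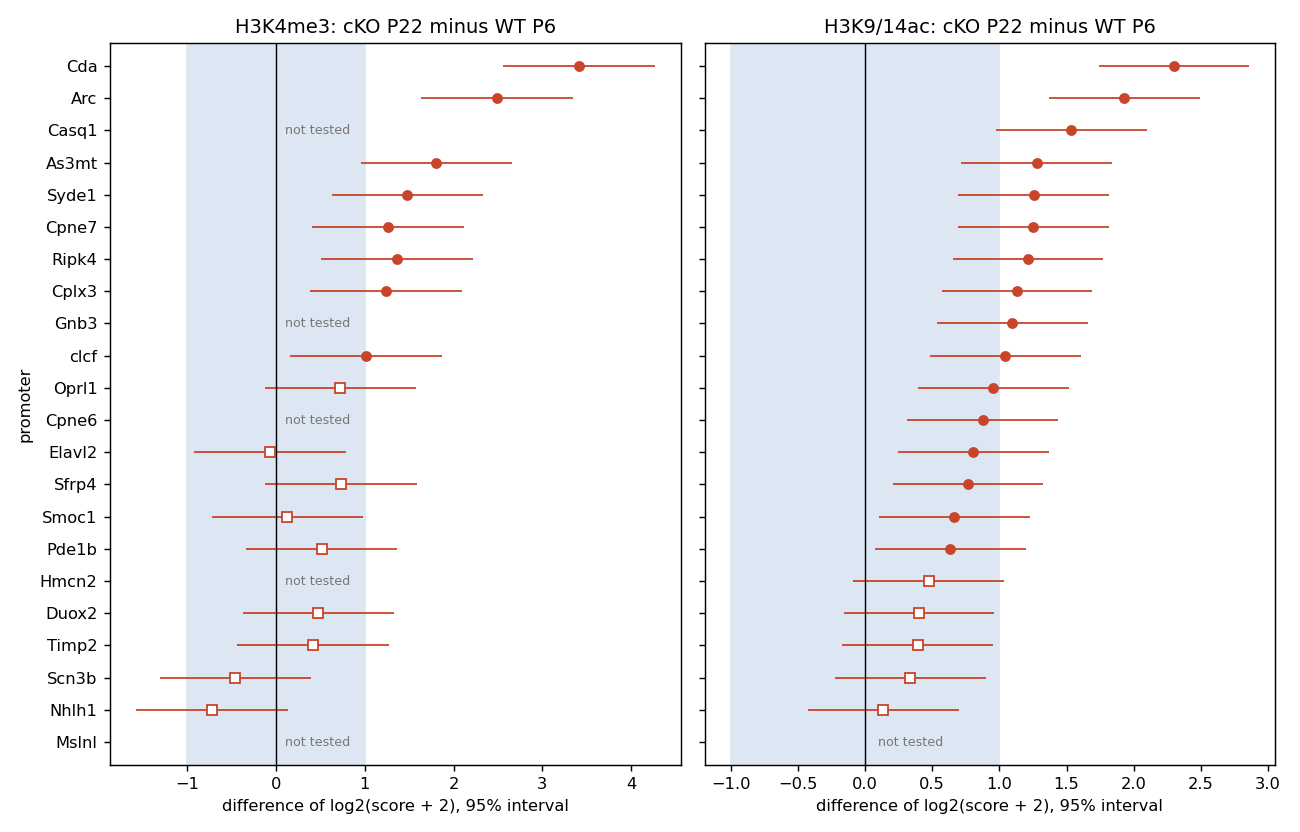
Difference between cKO P22 and WT P6 (x axis, log2(score + 2) scale, bars 95% intervals of limma) at 22 promoters (y axis) in H3K4me3 (left) and H3K9/14ac (right); filled circles passed the adjusted p of 0.05, open squares did not, and the shaded band is -1 to 1. Every tested H3K9/14ac difference drawn lies above 0, although centring turned 18 of them, while Nhlh1, Scn3b and Elavl2 lie below 0 in H3K4me3.

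Of the regulators of neuronal differentiation, Nhlh1 and Elavl2, 0 of the 2 were called in H3K4me3, where 50% of all tested promoters were, and Elavl2 was called in H3K9/14ac, where 77.3% were. In H3K4me3 their differences were below 0, as was that of Scn3b. Nhlh1 encodes a basic helix-loop-helix transcription factor of newly postmitotic neurons. Its H3K9/14ac scores were 12.0 and 10.6 at P6, 0.19 and 0.72 in WT P22 and 11.1 and 14.3 in the cKO. The cKO and P6 libraries overlapped, and the WT P22 libraries were far below both. The difference from P6 was 0.14 ± 0.28 (SE, n = 2 each) with a 95% interval of -0.43 to 0.70 (limma adjusted p = 0.631), and without any 1 library the interval stayed within -1 to 1. H3K4me3 at Nhlh1 scored 37.0 and 50.1 at P6, -0.06 and -0.50 in WT P22 and 19.7 and 32.4 in the cKO. Here both cKO libraries were below both P6 libraries without reaching the WT P22 level. The difference from P6 was -0.72 ± 0.43 (95% interval -1.58 to 0.13, limma adjusted p = 0.143), so H3K4me3 was neither called lower nor placed within the margin. Relative to the other promoters Nhlh1 lost ground in both marks: it ranked first of 23 in all 4 P6 libraries, but 4 and 6 in the cKO H3K4me3 libraries and 3 and 5 in the cKO H3K9/14ac libraries. After centring it was lower than at P6 by -1.83 in H3K4me3 and -1.17 in H3K9/14ac (limma adjusted p = 0.00455 and 0.00358). H3K27ac, acetylated lysine 27 of H3, was not measured at P6, and at Nhlh1 it scored -0.04 and 0.57 in WT P22 against 11.0 and 13.8 in the cKO.

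Elavl2 encodes an RNA-binding protein of neurons. Its H3K4me3 scores were 4.11 and 4.75 at P6, 0.34 and 0.14 in WT P22 and 3.73 and 4.57 in the cKO. The cKO values overlapped those of P6, with a difference of -0.07 ± 0.43 (SE, n = 2 each) and a 95% interval of -0.92 to 0.79 (limma adjusted p = 0.878). The interval passed the margin of 1 without WT P6 replicate 1, without WT P6 replicate 2 or without cKO replicate 2. In H3K9/14ac Elavl2 scored 1.80 and 2.18 at P6, 0.59 and 0.21 in WT P22 and 4.59 and 5.37 in the cKO. Both cKO libraries were above both P6 libraries, by 0.81 ± 0.28 (limma adjusted p = 0.00862), and the call was lost without WT P6 replicate 1 (0.74, limma adjusted p = 0.0957). After centring, H3K4me3 at Elavl2 was lower than at P6 by -1.17 (limma adjusted p = 0.0165), and the H3K9/14ac difference turned to -0.50 (limma adjusted p = 0.116).

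Promoters of 4 other genes were within the margin in 1 mark. Scn3b, which encodes a beta subunit of voltage-gated sodium channels, had H3K4me3 scores of 17.9 and 31.2 at P6, 10.1 and 12.2 in WT P22 and 12.6 and 22.0 in the cKO, so the cKO overlapped P6. Its difference was -0.46 (95% interval -1.31 to 0.40) in H3K4me3, from -0.83 without WT P6 replicate 1 to -0.087 without WT P6 replicate 2, and 0.34 (-0.22 to 0.90) in H3K9/14ac, where the scores were 6.79 and 8.16 at P6 and 8.77 and 11.3 in the cKO. Scn3b moved down the order of promoters in both marks, from ranks 3 and 2 at P6 to 11 and 11 in the cKO for H3K4me3, and from 3 and 4 to 7 and 11 for H3K9/14ac. With centred libraries it was lower than at P6 by -1.56 and -0.97 (limma adjusted p = 0.00228 and 0.00548). Timp2, which encodes an inhibitor of metalloproteinases, scored 7.17 and 10.1 at P6 and 9.32 and 15.0 in the cKO for H3K9/14ac. Its libraries overlapped in that mark, with a 95% interval of -0.17 to 0.95, and also in H3K4me3, with 11.9 and 27.3 at P6 and 16.5 and 37.4 in the cKO. In H3K4me3 Timp2 was neither called nor within the margin (difference 0.42, 95% interval -0.44 to 1.27). Smoc1, a gene of a secreted calcium-binding matrix protein, scored 14.0 and 19.6 at P6, 8.20 and 11.7 in WT P22 and 14.1 and 23.7 in the cKO for H3K4me3. Its cKO libraries spanned the P6 range from the lower P6 value upward (difference 0.13, 95% interval -0.73 to 0.98), and leaving out any 1 of the 6 libraries carried the interval past the margin. In H3K9/14ac Smoc1 was called higher, by 0.67 (limma adjusted p = 0.0285), but not without WT P6 replicate 1, WT P6 replicate 2 or cKO replicate 2. Duox2, which encodes a dual oxidase that makes hydrogen peroxide, was low in every group, with H3K9/14ac scores of 1.04 and 0.77 at P6 and 1.70 and 1.97 in the cKO (95% interval -0.16 to 0.96). Its cKO libraries lay above P6 without overlap, so its place within the margin rests on the pseudocount. After centring, H3K9/14ac was lower than at P6 at Timp2 (-0.91), Smoc1 (-0.64) and Duox2 (-0.91), with limma adjusted p from 0.00358 to 0.00946, and so was H3K4me3 at Smoc1 (-0.98, limma adjusted p = 0.00201). In H3K9/14ac the intervals of Scn3b and Duox2 passed the margin without cKO replicate 1, WT P6 replicate 1 or WT P6 replicate 2, and that of Timp2 without cKO replicate 1, where Timp2 was called higher (0.69, limma adjusted p = 0.0228), or without WT P6 replicate 2.

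Cda had the largest difference from P6 on the log2(score + 2) scale in both marks, while with a pseudocount of 20 or on scores without the log that of Arc was larger. It encodes cytidine deaminase, an enzyme of pyrimidine salvage. Its H3K4me3 scores were -0.11 and 0.23 at P6, 0.77 and 1.45 in WT P22 and 14.0 and 27.9 in the cKO. Cda was thus near 0 at both ages of the wild type and high in both cKO libraries. The cKO exceeded P6 by 3.41 ± 0.43 on the log2(score + 2) scale (SE, n = 2 each, limma adjusted p = 1.35e-09). Cda entered the H3K4me3 test only through its cKO libraries, so it had to differ. Its H3K4me3 call, as deposited or centred, adds no support. With P6 scores near 0 the size depends on the pseudocount, and with 20 it was 1.01 (limma adjusted p = 0.0331). The H3K4me3 call at Cda was lost with its own spread (limma adjusted p = 0.0611) and without the log (limma adjusted p = 0.0932). In H3K9/14ac Cda scored 1.34 and 0.66 at P6, 1.20 and 1.96 in WT P22 and 9.83 and 16.2 in the cKO, a difference of 2.30 ± 0.28 (limma adjusted p = 2.26e-10). It stayed higher with centred libraries, by 2.31 and 0.99 (limma adjusted p = 0.000184 and 0.00678), and it moved from ranks 17 and 20 at P6 to 4 and 3 in the cKO for H3K9/14ac. In H3K27ac it scored 1.67 and 1.36 in WT P22 and 10.5 and 13.5 in the cKO.

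Arc, an immediate early gene whose protein acts at excitatory synapses, had deposited cKO scores above both wild-type ages. H3K4me3 scored 3.50 and 5.98 at P6, 11.9 and 20.9 in WT P22 and 22.7 and 54.2 in the cKO. H3K9/14ac scored 2.62 and 4.17 at P6, 6.48 and 10.2 in WT P22 and 14.1 and 23.6 in the cKO. In each mark the 3 groups followed each other without overlap, from P6 through WT P22 to the cKO. The cKO differed from P6 by 2.49 ± 0.43 in H3K4me3 and 1.93 ± 0.28 in H3K9/14ac (SE, n = 2 each, limma adjusted p = 1.62e-06 and 2.74e-08). Centring left 1.39 and 0.62 (limma adjusted p = 0.00426 and 0.00765). Beside the 2.49 in H3K4me3, the difference between WT P22 and P6 was 1.43 and that between cKO and WT P22 1.06; these values share libraries. In the deposited scores the cKO at Arc therefore stood on the far side of WT P22 from P6. Its differences from WT P22, 1.06 in H3K4me3 and 1.00 in H3K9/14ac, were close to the medians over the tested promoters, 0.94 and 0.95. Arc ranked 1 in both WT P22 and both cKO libraries for H3K9/14ac. For H3K4me3 it ranked 4 and 3 in WT P22 and 2 and 2 in the cKO.

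**Figure D3:**
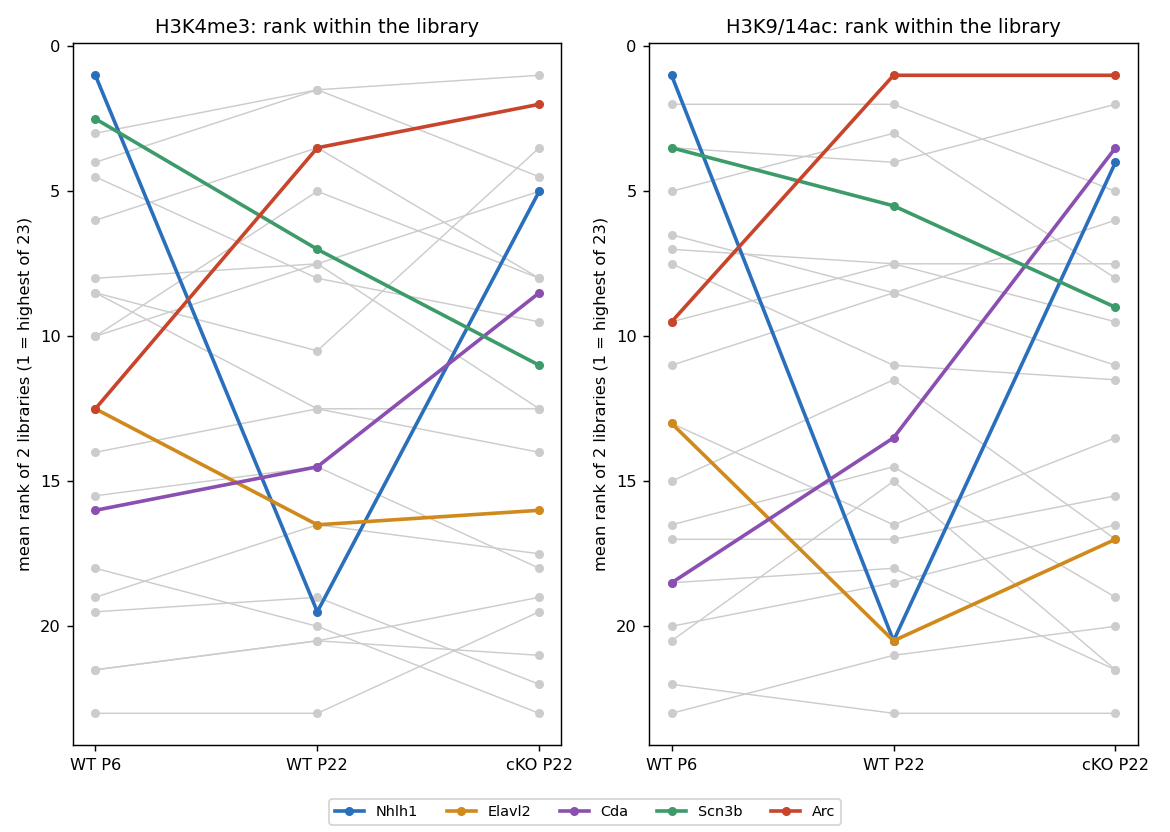
Mean rank over the 2 libraries of a group (y axis, 1 is the highest of 23) for WT P6, WT P22 and cKO P22 (x axis) in H3K4me3 (left) and H3K9/14ac (right); each line is a promoter, 22 are drawn and 5 are coloured. Nhlh1 goes from the first place at P6 to a low rank in WT P22 and back to a mean rank of 5 (H3K4me3) and 4 (H3K9/14ac) in the cKO, Arc and Cda move up from P6 to the cKO, and Scn3b moves down.

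As3mt encodes the arsenite methyltransferase. Its H3K4me3 scores were 2.06 and 3.26 at P6, 2.05 and 3.57 in WT P22 and 10.7 and 18.5 in the cKO, so the wild-type groups overlapped and the cKO lay above both. The difference from P6 was 1.81 ± 0.43 (SE, n = 2 each, limma adjusted p = 0.000385), and with centred libraries 0.70 (limma adjusted p = 0.00345). Quantile normalization, which forces the same distribution on each library, left a difference of 0.00 (limma adjusted p = 1). In H3K9/14ac As3mt scored 1.30 and 1.80 at P6 and 5.28 and 8.13 in the cKO, a difference of 1.28 (limma adjusted p = 9.84e-05) that became -0.03 after centring. Of the enzymes and kinases of the table (Cda, As3mt, Duox2 and Ripk4), 3 of 4 were higher than at P6 in each mark, beside 50% and 77.3% of all promoters tested. After centring Cda and As3mt were higher in H3K4me3 and Cda alone in H3K9/14ac. The H3K4me3 calls of Cda, as deposited or centred, add no support to these counts, since it passed that filter only through its cKO libraries. Ripk4, a kinase gene known from keratinocyte differentiation, scored 9.92 and 8.26 at P6, 6.80 and 8.95 in WT P22 and 19.7 and 35.3 in the cKO for H3K4me3. Both cKO libraries lay above all wild-type libraries, with a difference from P6 of 1.36 (limma adjusted p = 0.00688). In H3K9/14ac Ripk4 was higher by 1.21 (limma adjusted p = 0.000145), and centring brought the 2 values to 0.26 and -0.09.

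Of the 9 synaptic, excitability and signalling genes, 4 of 7 tested were higher than at P6 in H3K4me3 and 8 of 9 in H3K9/14ac, all but Scn3b, beside 50% and 77.3% of all promoters tested, whereas after centring Arc alone was higher in either mark. The median differences of the group were 1.24 and 1.10, beside 0.87 and 1.00 over all promoters tested. The 1.24 is the value of Cplx3 itself, which passed the filter only through its cKO libraries and so had to differ. Its calls add no support to the counts and medians of the group. Syde1, a gene of a GTPase-activating protein, scored 6.32 and 9.05 at P6 and 18.2 and 33.5 in the cKO for H3K4me3, a difference of 1.48 (limma adjusted p = 0.0036). Cpne7, which encodes a calcium-dependent phospholipid-binding copine, scored 6.64 and 7.06 at P6, 11.6 and 13.7 in WT P22 and 15.0 and 24.5 in the cKO. Cplx3, a complexin gene of synaptic vesicle release, was below 0 at P6 (-0.33 and -0.43) and reached 1.09 and 2.71 in the cKO, through which alone it passed the filter in each mark. At these 3 promoters the cKO libraries lay above both wild-type ages, with differences from P6 of 1.26 at Cpne7 and 1.24 at Cplx3 (limma adjusted p = 0.0117 and 0.012). Centring reduced the H3K4me3 differences to 0.38 at Syde1, 0.16 at Cpne7 and 0.13 at Cplx3, none of which passed the test (limma adjusted p from 0.0551 to 0.589). In H3K9/14ac Syde1, Cpne7 and Cplx3 were higher by 1.26, 1.25 and 1.13 (limma adjusted p from 9.84e-05 to 0.000357), and after centring these values were -0.05, -0.05 and -0.18. Oprl1, the gene of the nociceptin receptor, scored 6.38 and 10.8 at P6, 3.04 and 3.20 in WT P22 and 11.8 and 19.3 in the cKO for H3K4me3. Its cKO libraries were above P6 without overlap, but the difference of 0.73 was not called (limma adjusted p = 0.143) except without cKO replicate 1 (1.04, limma adjusted p = 0.0435), whereas the H3K9/14ac difference of 0.96 was (limma adjusted p = 0.00208), and after centring both turned, to -0.38 and -0.35. Pde1b, which encodes a calmodulin-dependent phosphodiesterase, differed by 0.51 in H3K4me3 (limma adjusted p = 0.323) and was called in H3K9/14ac, by 0.64 (limma adjusted p = 0.0345). With centred libraries Pde1b was lower than at P6 in both marks, by -0.59 and -0.67 (limma adjusted p = 0.00892 and 0.00678).

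The H3K4me3 calls of Syde1, Ripk4, Cpne7, Cplx3 and clcf depended on single libraries. Those of Cda, Arc and As3mt depended on the pooled spread and on the log. With each promoter's own spread Arc and As3mt were lost in H3K4me3 (limma adjusted p = 0.0786 and 0.0715). Without the log they were lost as well (limma adjusted p = 0.0932 each). Cda entered the H3K4me3 test only through its cKO libraries. Without cKO replicate 2, the highest H3K4me3 library, 4 promoters were called, and Syde1, Ripk4, Cpne7, Cplx3 and clcf were lost, each with a limma adjusted p of at least 0.0759. Without WT P6 replicate 1 there were 5 calls, with Syde1, Cpne7, Cplx3 and clcf lost, and without WT P6 replicate 2 there were 5, with Ripk4, Cpne7, Cplx3 and clcf lost. H3K9/14ac had 11 calls without WT P6 replicate 1, losing Oprl1, Elavl2, Smoc1, Sfrp4, Pde1b and clcf, and 14 without cKO replicate 2. Sfrp4 and Pde1b were 2 of the 3 calls lost in the last case, with Smoc1. Cda, Arc and As3mt were called in both marks with each of the 6 libraries of the mark left out in turn.

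Several promoters had acetylation with little or no H3K4me3. Casq1, the calsequestrin gene of muscle calcium stores, scored -0.54 in both P6 libraries and 0.31 and 1.65 in the cKO for H3K4me3, too low for the filter, which asked for 2 or more libraries scoring 1 or higher. In H3K9/14ac it went from 0.70 in both P6 libraries and 0.78 and 0.65 in WT P22 to 3.95 and 8.30 in the cKO. Casq1 was thus low at both wild-type ages and entered the test only through its cKO libraries. The cKO exceeded P6 by 1.54 (limma adjusted p = 5.22e-06), or by 0.23 after centring (limma adjusted p = 0.353). Gnb3, a G protein beta subunit gene, scored 1.51 and 1.90 at P6 and 4.41 and 7.78 in the cKO for H3K9/14ac, a difference of 1.10 (limma adjusted p = 0.000481). Cpne6, a second copine gene, scored 1.38 and 1.30 at P6 and 3.33 and 5.05 in the cKO, a difference of 0.88 (limma adjusted p = 0.00452). For H3K4me3 Gnb3 and Cpne6 were below 0 in both P6 libraries and between -0.09 and 1.28 in the cKO. With no filter Casq1 and Cpne6 also passed in H3K4me3, with differences of 0.99 and 1.19 (limma adjusted p = 0.0303 and 0.0103), and 11 promoters were called. After centring, H3K9/14ac at Gnb3 and Cpne6 turned to -0.21 and -0.43, the latter called lower (limma adjusted p = 0.0266).

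The group of 5 genes of secreted, matrix and surface proteins was set as Timp2, Smoc1, Hmcn2, Mslnl and the promoter listed as clcf. Sfrp4, described below, was in none of the role lists set beforehand and is left out of the group's counts and medians. In H3K4me3 clcf was the 1 called of 3 tested, beside 50% of all promoters tested. In H3K9/14ac clcf and Smoc1 were called of 4 tested, beside 77.3%. After centring none of the group was higher. The median differences of the group were 0.42 and 0.57, beside 0.87 and 1.00 over all promoters tested. The name clcf matched no reference symbol and is printed as listed, so its place in this group rests on the name alone. The promoter listed as clcf had the highest H3K4me3 scores of the table in the cKO, 36.3 and 67. Its scores were 20.5 and 26.8 at P6 and 18.7 and 26.6 in WT P22. The difference from P6 of 1.01 passed the test narrowly (limma adjusted p = 0.0414), and it was lost without any 1 of the P6 or WT P22 libraries or without cKO replicate 2, with adjusted p up to 0.284. In H3K9/14ac clcf scored 5.71 and 9.61 at P6 and 13.1 and 23.3 in the cKO, a difference of 1.04 (limma adjusted p = 0.000824), and centring turned the 2 marks to -0.09 and -0.26. Sfrp4, which encodes a secreted inhibitor of Wnt signalling, scored 7.48 and 9.94 at P6 and 11.6 and 21.0 in the cKO for H3K4me3 (difference 0.73, limma adjusted p = 0.143), and was called there only without cKO replicate 1 (1.11, limma adjusted p = 0.0386). In H3K9/14ac Sfrp4 was called, with a difference of 0.77 (limma adjusted p = 0.0118) that turned to -0.54 after centring (limma adjusted p = 0.0139). Mslnl, a mesothelin-like gene, had no mark to compare: its scores ran from -0.45 to -0.15 in H3K4me3 and from 0.06 to 0.38 in H3K9/14ac over the P6 and cKO libraries.

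Seen over both marks, 9 promoters were higher than at P6 in each, of which 8 are named here (Cda, Arc, As3mt, Syde1, Ripk4, Cpne7, Cplx3 and clcf). Of these, Cda in H3K4me3 and Cplx3 in both marks entered the tests only through their cKO libraries, so those calls add no support. Another 5 were called in H3K9/14ac and tested but not called in H3K4me3: Oprl1, Elavl2, Smoc1, Sfrp4 and Pde1b. Called in H3K9/14ac and not tested in H3K4me3 were Casq1, which entered only through its cKO libraries, Gnb3 and Cpne6. Nhlh1, Duox2, Scn3b and Timp2 were called in neither. These sets do not show that a promoter differs between marks. The difference between the marks was tested itself, by the interaction in 1 limma fit of the cKO and P6 libraries of both marks, and it called 0 of 22 promoters (Benjamini-Hochberg adjusted), 0% of those tested, with 2 at an unadjusted p under 0.05. Cda, named after its value was seen, was 1 of these: its H3K9/14ac change was smaller than its H3K4me3 change by -1.11 ± 0.51 (limma adjusted p = 0.364). At Nhlh1 and Elavl2 the H3K9/14ac change lay above the H3K4me3 change by 0.86 ± 0.48 and 0.87 ± 0.45 (limma adjusted p = 0.391 and 0.364). With centred libraries the interaction called 3 promoters, among them Cda (-1.19, limma adjusted p = 0.0178) and As3mt (-0.61, limma adjusted p = 0.05).

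**Figure D4:**
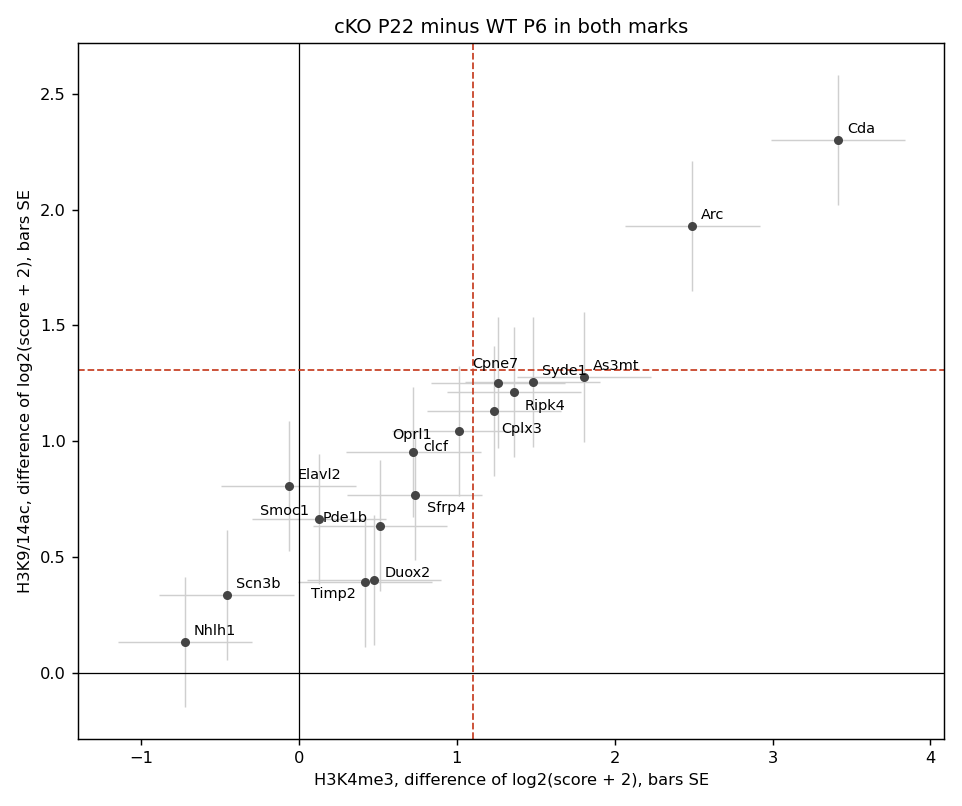
Difference between cKO P22 and WT P6 in H3K4me3 (x axis) and H3K9/14ac (y axis), log2(score + 2) scale, with SE bars from limma, for 17 promoters tested in both marks; dashed red lines mark the shift of the library medians, 1.10 and 1.31. Cda and Arc lie beyond both dashed lines, and Nhlh1 and Scn3b lie lowest in both marks.

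Against WT P22, with which the comparison to P6 shares the cKO libraries, the members fell into different places. H3K4me3 was higher in the cKO than in WT P22 at 9 of 18 promoters (50%) and H3K9/14ac at 18 of 22 (81.8%), with 0 lower by limma in either mark. These counts are for the libraries as deposited. The median difference from WT P22 over the tested promoters was 0.94 for H3K4me3 and 0.95 for H3K9/14ac. Whether this shift belongs to the promoters or to the scaling of the libraries was not tested. Between the wild-type ages few promoters were called: in H3K4me3 2 of 19 were higher at P22 (10.5%) and 3 lower (15.8%), and in H3K9/14ac 1 of 23 was higher (4.35%) and 2 lower (8.7%). At Nhlh1 H3K4me3 in the cKO was 4.00 above WT P22 and -0.72 from P6, and H3K9/14ac was 2.58 above WT P22 and 0.14 from P6. At Elavl2 the values were 1.46 and -0.07 for H3K4me3, and 1.54 and 0.81 for H3K9/14ac. In the deposited scores the cKO at both promoters differed less from P6 than from WT P22 in each mark. Elavl2 was within the margin in H3K4me3 and Nhlh1 in H3K9/14ac. By rank Nhlh1 was also nearer to P6 in both marks. Elavl2 ranked 12 and 13 at P6, 16 and 17 in WT P22 and 16 and 16 in the cKO for H3K4me3, nearer to WT P22. For H3K9/14ac its ranks were 13 and 13, 19 and 22, and 16 and 18, so the cKO lay between the ages. At Cda the H3K4me3 values were 2.82 above WT P22 and 3.41 above P6, at As3mt 1.77 and 1.81, and at Ripk4 1.53 and 1.36. For these 3 genes the wild-type ages differed by no more than 0.59 in H3K4me3 (limma adjusted p from 0.326 to 0.926). In the deposited scores the cKO thus stood apart from both. Arc (1.06 and 2.49) and Cpne7 (0.54 and 1.26) were nearer to WT P22 than to P6 in H3K4me3. Their H3K9/14ac values had the same order, 1.00 and 1.93 at Arc and 0.77 and 1.25 at Cpne7. In the deposited scores Scn3b lay between the wild-type ages in H3K4me3, 0.51 above WT P22 and -0.46 from P6. Neither difference passed the test (limma adjusted p = 0.279 and 0.345). By rank it lay below both ages in this mark, with 3 and 2 at P6, 6 and 8 in WT P22 and 11 and 11 in the cKO.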

How the data were processed

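Scores around the TSS were taken from the table the authors deposited, 1 score with 2 decimals per gene and library for 16 libraries of 3 marks. The submitters' processing notes name BWA and mm9; no source used here gives the window, the background step or the scaling between libraries. Scores are not read counts, so depth is unknown and no counting interval was computed. The inputs and the mean curves, which hold no P6 column, were not used.

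The members and lists were chosen with earlier results of these data known. Per mark, 1 limma fit (limma 3.58.1, R 4.3.3) on log2(score + 2) used all libraries of the mark, including WT P22, without covariates; Nt5dc2 entered it without cKO values. Promoters entered with 2 or more libraries of the mark scoring 1 or higher. Limma pooled the spread completely, so each tested promoter of a mark has 1 SE. P-values were Benjamini-Hochberg adjusted over the tested promoters, with a threshold of 0.05. Named in full were promoters called, those within the margin, and Nhlh1, Elavl2 and Arc; the rest were grouped by role. The fits were tested on simulated data. Of 24 names 23 matched a RefSeq symbol, and of 23 members 13 had a promoter sequence, 10 of them with a single start. The deposited numeric identifiers matched 0 of the named genes and were not used. 1 promoter of the table stayed in fits, counts and ranks and is not reported here. Python 3.11.15, pandas 2.3.3, scipy 1.17.1 and matplotlib 3.10.9 were used. Alternatives were pseudocounts of 1 and 20, no filter, a replicate block, the 2 groups alone, no log, each promoter's own spread, centred or quantile-normalized libraries, and each library left out.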

Additional observations from a re-analysis of the deposited data

Results flagged for a closer look

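Hmcn2, a hemicentin gene of the extracellular matrix, had opposite directions in the 2 marks in every library. H3K4me3 was below P6 in both cKO libraries (-0.43 and -0.29 at P6, -0.74 and -0.82 in the cKO, a difference of means of -0.42), and H3K9/14ac was above P6 in both (0.73 and 0.62 against 1.44 and 2.01, a difference of 1.05). The interaction term of limma was 0.90 ± 0.45 (limma adjusted p = 0.364), and all H3K4me3 scores lay below 0. The term was called with a pseudocount of 1 (2.25, limma adjusted p = 0.00226). After centring, H3K9/14ac at Hmcn2 was lower than at P6 by -0.83 (limma adjusted p = 0.0163), and H3K4me3 there was too low to be tested.

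H3K27ac, which has no P6 libraries and entered no comparison, had a mean score over the 23 promoters of 8.93 in the cKO and 3.35 in WT P22, with both cKO libraries above both WT libraries. No group holds more than 2 libraries, so single libraries far from their group were not looked for.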

How the results depend on the processing

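With each library centred on its median, H3K4me3 was called higher at 4 and lower at 5 promoters and H3K9/14ac at 2 and 9, the promoters within the margin numbered 9 and 15, and the interaction called 3. Under quantile normalization the calls were 6 higher and 7 lower for H3K4me3 and 4 and 4 for H3K9/14ac. Centring turned the H3K4me3 difference at Duox2 (-0.63), Oprl1 (-0.38), Timp2 (-0.69), Smoc1 (-0.98), Sfrp4 (-0.37), Pde1b (-0.59) and clcf (-0.090). It turned H3K9/14ac at Nhlh1 (-1.17), Hmcn2 (-0.83), Duox2 (-0.91), Oprl1 (-0.35), Elavl2 (-0.50), Gnb3 (-0.21), Cpne7 (-0.054), Scn3b (-0.97), Cplx3 (-0.18), Syde1 (-0.052), Timp2 (-0.91), Smoc1 (-0.64), Sfrp4 (-0.54), Cpne6 (-0.43), Pde1b (-0.67), Ripk4 (-0.095), clcf (-0.26) and As3mt (-0.03). Quantile normalization turned H3K4me3 at Duox2 (-0.76), Oprl1 (-0.74), Timp2 (-0.057), Smoc1 (-0.66), Sfrp4 (-0.76) and Pde1b (-0.33), and H3K9/14ac at Nhlh1 (-0.45), Hmcn2 (-0.15), Duox2 (-0.46), Elavl2 (-0.32), Gnb3 (-0.13), Scn3b (-0.55), Timp2 (-0.44), Smoc1 (-0.46), Sfrp4 (-0.23), Cpne6 (-0.29), Pde1b (-0.22) and Ripk4 (-0.081). Which scaling is right was not tested. By limma without the log, H3K4me3 had 0 calls (7 higher and 1 lower at an unadjusted p under 0.05) and H3K9/14ac 13, and with each promoter's own spread 0 (7 higher) and 11. With a pseudocount of 1 the margin held 0 promoters for H3K4me3 and 1 for H3K9/14ac and the interaction called 2; with 20 the margin held 11 and 21, since a larger pseudocount shrinks every difference. Leaving out 1 library gave 4 to 11 higher calls for H3K4me3 and 11 to 19 for H3K9/14ac, 0 lower calls in each, 0 to 1 and 1 to 7 promoters within the margin, and 0 to 2 interaction calls. The differences that changed sign ran from -0.16 to 0.033 at Elavl2, from -0.13 to 0.96 at Timp2 and from -0.21 to 0.47 at Smoc1 for H3K4me3, and from -0.024 to 0.29 at Nhlh1 for H3K9/14ac. The lone library was then assumed to vary like those of the other groups. Replicates share only a number across groups: same-numbered libraries deviated together (r = 0.64 for H3K4me3 over 18 promoters and 0.39 for H3K9/14ac over 22), and a replicate block gave 11 higher and 1 lower call for H3K4me3, with Nhlh1 now lower and Oprl1 and Sfrp4 higher, 20 higher for H3K9/14ac and 3 for the interaction, among them Hmcn2 (limma adjusted p = 0.0373). The depth behind the scores is unknown, so low scores such as those of Mslnl and Hmcn2 cannot be told from background.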
